A study of Mus musculus with 20 samples.

Results

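Stab1, Stab2, Lyve1, Clec4g, Fcgr2b, Kdr, Pecam1, Vwf, Cd34 and Plvap, 10 genes that mark the endothelial cells of liver vessels, were followed across 4 groups of mouse livers. They were chosen by symbol, and all 10 were found among the 46095 rows of the count table and passed the low-count filter with 14440 genes in all. Whole livers of 20 mice aged 31 to 33 weeks were sequenced, 5 per group: wild type (WT) on a chow diet, WT on a diet used to model non-alcoholic steatohepatitis, here called NASH diet, and mice with a liver-specific knockout of Pck1 (labelled Pck1-cKO, here KO) on either diet, each diet lasting 24 weeks. The promoter that drove the deletion, the strain and the composition of the NASH diet are not named by the labels. Nothing in the labels says whether littermates were used, so p-values measure the spread between these mice.

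The sinusoids of the liver are capillaries lined by a thin, fenestrated endothelium without a continuous basement membrane. Its cells clear waste molecules and immune complexes from the blood with scavenger receptors (Stab1, Stab2), an inhibitory receptor for IgG (Fcgr2b), a hyaluronan-binding receptor also found on lymphatic vessels (Lyve1) and a C-type lectin (Clec4g), and they depend on vascular endothelial growth factor (VEGF) through its receptor Kdr. Pecam1 is a junctional adhesion molecule of all endothelium. Vwf is a clotting glycoprotein of larger vessels, Cd34 is a sialomucin of continuous capillaries, and Plvap forms the diaphragms of fenestrae and caveolae. In chronic liver injury sinusoidal cells are known to lose fenestrae and gain features of continuous capillaries, a change called capillarization.

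Every member was detected in every library, with 27 to 2016 counts per gene and library. Levels are given as CPM, read counts scaled to a common library size with TMM factors. To compare genes roughly, levels were divided by exonic length. That length is the union of all annotated exons of a gene and can exceed the length of its transcripts, which lowers the value. Per kilobase, Clec4g had the highest level, at 29.0 ± 15.0 CPM per kb (SD over the 20 libraries), followed by Plvap at 13.1 ± 6.71, Lyve1 at 9.52 ± 4.99 and Fcgr2b at 7.85 ± 1.58 CPM per kb. Kdr (5.53 ± 1.44), Stab2 (5.44 ± 1.53), Pecam1 (4.40 ± 1.22) and Stab1 (4.16 ± 1.56 CPM per kb) formed a middle group. Vwf (0.512 ± 0.199) and Cd34 (0.487 ± 0.266 CPM per kb) were lowest. Clec4g exceeded Plvap in 17 of 20 libraries and Fcgr2b exceeded Kdr in 19 of 20. The neighbours Plvap and Lyve1 (14 of 20), Lyve1 and Fcgr2b (11 of 20), Kdr and Stab2 (13 of 20), Pecam1 and Stab1 (10 of 20) and Vwf and Cd34 (11 of 20) changed places between libraries. This order pools the groups. In WT chow Plvap was at 5.49 CPM per kb, below Lyve1 (8.91), Fcgr2b (7.70) and Kdr (5.68 CPM per kb). Counting may split reads between Fcgr2b and related Fc receptor genes, so its level is uncertain.

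The sequences just upstream of the start sites of Kdr, Stab1, Stab2 and Clec4g are shown because the results below turn on these genes: Kdr was called between genotypes on the NASH diet, Stab1 and Stab2 varied together within groups, and Clec4g separated the libraries by a measure of gene-length bias, the length slope. The set of start sites used here, on build GRCm38.p6, held 6 of the 10 members, which does not mean that the others lack a start site. Each run is the 250 bases before the start in that set. For these 4 genes that start lies inside the annotated span of the gene. The run is written 5′ to 3′ on the gene's strand, which is the minus strand for all 4. Capitals mark GGAA or its reverse complement TTCC, the core letters bound by ETS factors, a family that includes the endothelial regulators Erg and Fli1.
Kdr, chr5:75978456-75978705: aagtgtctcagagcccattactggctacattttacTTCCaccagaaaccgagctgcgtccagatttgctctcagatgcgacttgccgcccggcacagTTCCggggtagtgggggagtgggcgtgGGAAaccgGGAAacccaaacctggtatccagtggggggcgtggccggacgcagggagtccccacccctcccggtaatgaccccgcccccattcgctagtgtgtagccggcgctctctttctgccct
Stab1, chr14:31168642-31168891: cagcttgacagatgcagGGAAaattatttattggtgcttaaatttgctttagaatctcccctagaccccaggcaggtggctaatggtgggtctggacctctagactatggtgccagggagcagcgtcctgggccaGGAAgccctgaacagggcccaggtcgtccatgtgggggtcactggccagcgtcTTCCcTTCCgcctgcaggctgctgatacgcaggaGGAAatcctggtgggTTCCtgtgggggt
Stab2, chr10:87007943-87008192: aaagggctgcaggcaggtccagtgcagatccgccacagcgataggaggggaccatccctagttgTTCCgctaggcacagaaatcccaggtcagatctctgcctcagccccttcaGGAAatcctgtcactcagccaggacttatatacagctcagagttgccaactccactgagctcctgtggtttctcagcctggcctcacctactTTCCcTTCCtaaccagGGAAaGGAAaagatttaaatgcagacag
Clec4g, chr8:3720652-3720901: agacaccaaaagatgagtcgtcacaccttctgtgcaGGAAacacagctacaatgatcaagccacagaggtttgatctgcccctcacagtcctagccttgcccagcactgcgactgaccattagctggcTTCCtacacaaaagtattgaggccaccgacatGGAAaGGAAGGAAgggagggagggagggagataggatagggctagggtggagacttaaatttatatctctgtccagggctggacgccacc
The core was matched 4 times upstream of Kdr, 6 times each for Stab1 and Stab2 and 5 times for Clec4g, on either strand, and these letters cannot overlap one another. It was also present in 93.4% of 32851 start sites of the same length, with a median of 3 matches. GATAA, the core letters of GATA factors, was in none of the 6 members' windows and in 22.6% of all. These counts describe letters and not bound sites.

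The genes themselves lie apart in the genome (GRCm38.p6, the build named in the submitters' processing notes being GRCm38). Stab1 spans chr14:31139017-31168651, Stab2 chr10:86841194-87008038, Lyve1 chr7:110850607-110862953, Clec4g chr8:3707066-3720695, Fcgr2b chr1:170960558-170976071 and Kdr chr5:75932827-75979072. Pecam1 spans chr11:106654213-106715281, Vwf chr6:125552948-125686679, Cd34 chr1:194938821-194961292 and Plvap chr8:71497753-71511806.

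Properties of the libraries touched these genes. Totals were 9958935 to 20601955 counts. Pck1 was at 1710 to 4640 CPM in WT chow and 458 to 861 CPM in KO chow, and at 1700 to 2970 CPM in WT NASH and 300 to 542 CPM in KO NASH (edgeR adjusted p = 0.00011 and 6.13e-05), which matches the genotype labels. Summed over 6 hepatocyte markers every library held 53100 to 121000 CPM. Sex, read from Y-linked counts, was 5 males in WT chow, 1 male and 4 females in WT NASH, 3 males and 2 females in KO chow, and 4 males and 1 female in KO NASH. The length slope, which is how steeply a library's log2 CPM, less the average library's, changes with log2 exonic length, was -0.34 to -0.25 in 6 libraries (WT chow replicates 3, 4 and 5, WT NASH replicate 4, KO chow replicates 4 and 5) and 0.01 to 0.19 in the other 14, which include all of KO NASH. Sex and slope were therefore unevenly spread over the groups, and fits with them as terms are given beside the results. Because whole liver was sequenced, more endothelial cells and more RNA per cell cannot be told apart.

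Members called were few: Plvap, higher on the NASH diet in WT liver, and Lyve1 and Kdr, higher in KO NASH than in WT NASH. Among the members, 1 of 10 was called in WT NASH against WT chow (edgeR adjusted p under 0.05 over all genes), beside 5.93% of all genes tested. Of the 10, 2 were called in KO NASH against WT NASH, both higher, beside 9.65% of all genes. None was called in KO chow against WT chow (5.53% of all genes), in KO NASH against KO chow (3.29%) or in the interaction, which asks whether the genotype difference itself changed with diet (0.139%). At an unadjusted p under 0.05 these 3 gave 1, 3 and 1 members, beside 19.4%, 22.2% and 8.25% of all genes, and DESeq2 called 1, 0 and 0, beside 9.62%, 9.02% and 1.31%. With 10 members a single gene weighs more than these background shares, so the counts do not set the members apart from other genes. The median log2 fold change of the members was 0.52 in KO NASH against WT NASH, with 9 of 10 above 0, against a median of 0 over all genes. It was -0.04 in WT NASH against WT chow (all genes 0.01), 0.20 in KO chow against WT chow (all genes 0) and 0.31 in KO NASH against KO chow (all genes -0.02).

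**Figure D1:**
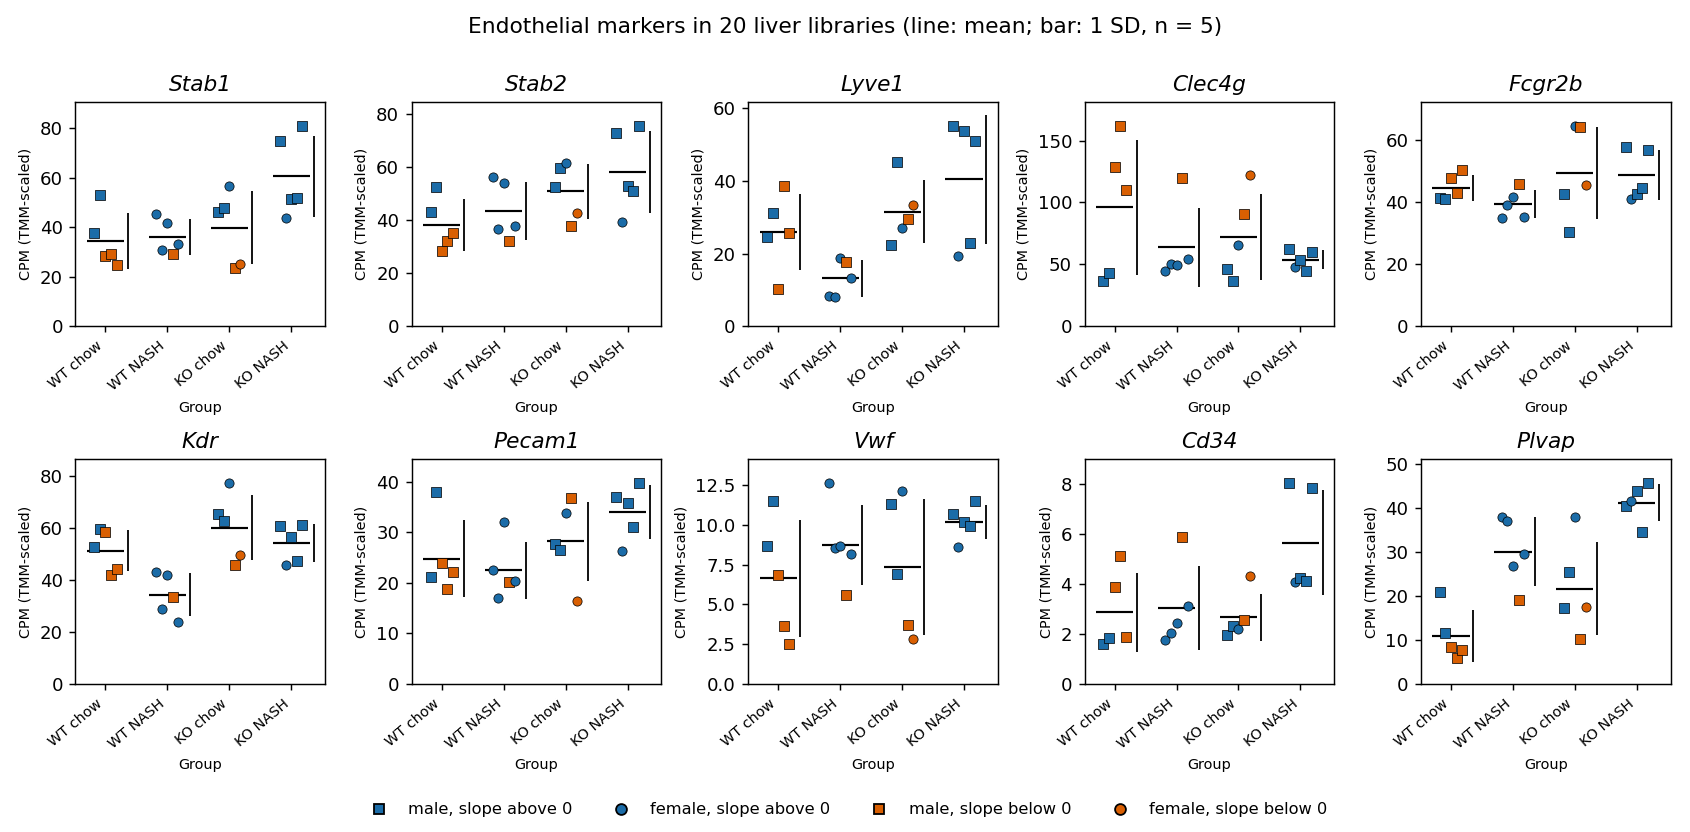
Level of each of the 10 members in CPM (y axis, from 0) by group (x axis), 1 point per library, with the mean as a line and 1 SD as a bar (n = 5). Squares are males and circles females; orange points are the 6 libraries with a length slope below 0, which lie apart from the others for Clec4g and Stab1. Lyve1 and Kdr in KO NASH lie above every WT NASH library.

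**Figure D2:**
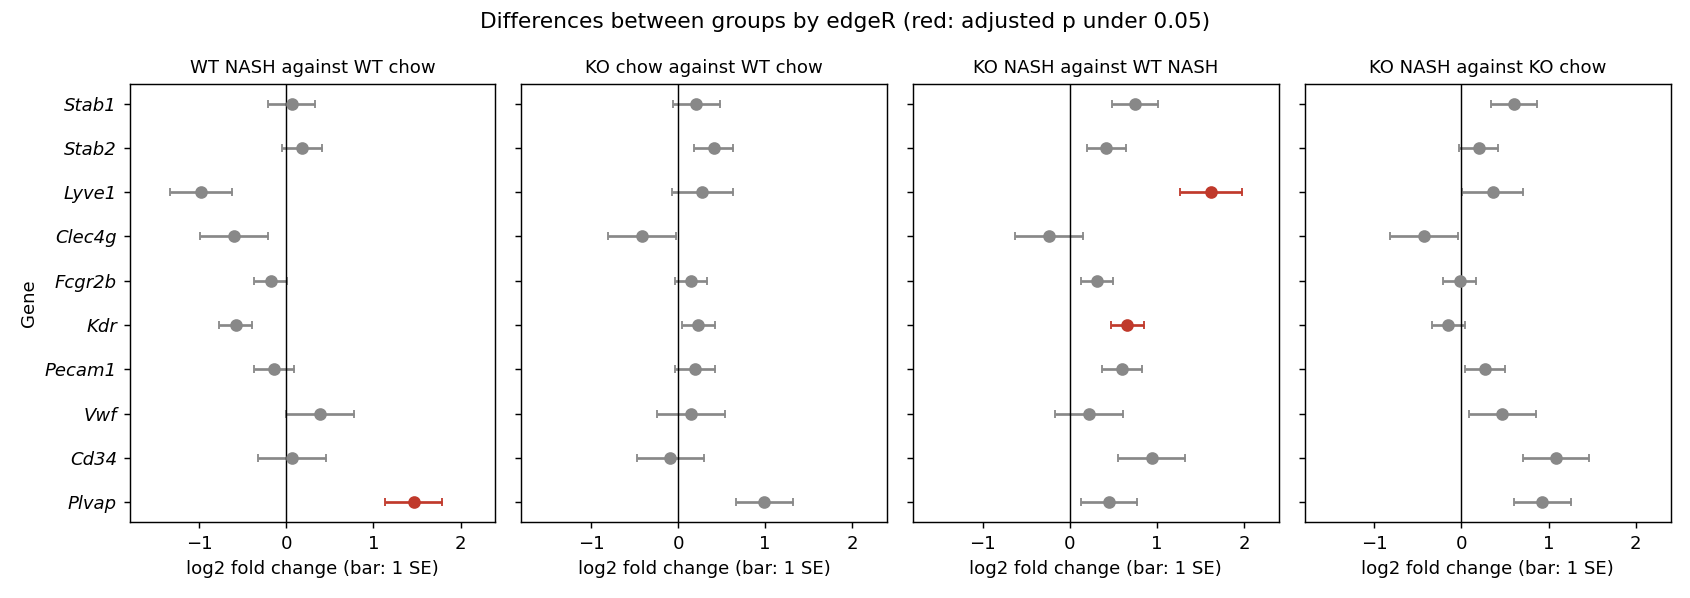
log2 fold change (x axis) of each member (y axis) in the 4 comparisons of 2 groups, with 1 SE as the bar; red points passed an edgeR adjusted p of 0.05. Red points are Plvap in WT NASH against WT chow (1.46) and Lyve1 (1.62) and Kdr (0.66) in KO NASH against WT NASH.

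Lyve1, the hyaluronan-binding receptor, had the largest difference of the members with the knockout on the NASH diet. In WT NASH replicates 1 to 5 it was at 8.39, 7.95, 18.9, 17.7 and 13.2 CPM, and in KO NASH at 55.2, 19.3, 53.6, 23.0 and 51.1 CPM. All 5 KO libraries lay above all 5 WT libraries. The share of all genes with such a separation was not counted, so it does not set Lyve1, or Kdr below, apart from other genes. KO NASH itself was split, with replicates 1, 3 and 5 high and replicates 2 and 4 near the highest WT value. The means were 13.2 ± 5.07 and 40.4 ± 17.7 CPM (SD, n = 5), and the log2 fold change was 1.62 with an SE of 0.359 (edgeR adjusted p = 0.00866). On chow the WT values were 24.5, 31.1, 10.3, 38.5 and 25.7 CPM and the KO values 22.3, 45.2, 27.1, 29.5 and 33.3 CPM, and these ranges overlapped (log2 fold change 0.28, SE 0.349, edgeR adjusted p = 0.706). WT NASH was thus the lowest of the 4 groups. Its difference from WT chow was -0.98 (SE 0.355) and did not pass the test (edgeR adjusted p = 0.108), nor did the interaction of 1.34 (SE 0.496, edgeR adjusted p = 0.404). KO NASH and KO chow differed by 0.36 (SE 0.348, edgeR adjusted p = 0.544).

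The Lyve1 call in KO NASH against WT NASH held without any 1 library (edgeR adjusted p up to 0.028) and with the length slope as a term (1.60, edgeR adjusted p = 0.0061). Sex as a term gave 1.27 and no call (edgeR adjusted p = 0.0766), and sex with the slope gave 1.25 and a call (edgeR adjusted p = 0.0494). The WT NASH male was at 17.7 CPM and the 4 KO NASH males at 23.0 to 55.2 CPM. The WT NASH females were at 7.95 to 18.9 CPM and the KO NASH female at 19.3 CPM. Because the groups did not overlap, the order within each sex was fixed beforehand and says nothing about sex. Lyve1 also marks lymphatic vessels. Of the lymphatic markers, Pdpn had at most 1 count and Ccl21a at most 4 counts in any library, while Prox1, which hepatocytes also express, averaged 104 to 147 CPM in the 4 groups. The part of lymphatic vessels in the Lyve1 values was not tested.

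Kdr, the main signalling receptor for VEGF on endothelium, followed the same order of groups on the NASH diet. It was at 43.2, 28.8, 41.8, 33.5 and 24.0 CPM in WT NASH and at 60.7, 45.7, 56.3, 47.4 and 61.1 CPM in KO NASH. Again no KO library overlapped with WT, although the lowest KO value was close to the highest WT value. The means were 34.3 ± 8.25 and 54.2 ± 7.29 CPM (SD, n = 5), and the log2 fold change was 0.66 with an SE of 0.19 (edgeR adjusted p = 0.0323). On chow the WT values were 52.5, 59.5, 58.3, 41.9 and 44.2 CPM and the KO values 65.2, 62.5, 77.1, 45.9 and 49.5 CPM. These overlapped (0.23, SE 0.189, edgeR adjusted p = 0.546). WT NASH was the lowest of the 4 groups, and the means on chow were 51.3 CPM in WT and 60.0 CPM in KO. The log2 difference of WT NASH from WT chow was -0.58 (SE 0.19) and did not pass the test (edgeR adjusted p = 0.0738), though it did with the length slope as a term (-0.71, edgeR adjusted p = 0.00539). KO NASH was not above KO chow (-0.15, SE 0.188, edgeR adjusted p = 0.651). The interaction of 0.44 (SE 0.267) did not pass the test (edgeR adjusted p = 0.732).

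The Kdr call in KO NASH against WT NASH was near the threshold. Leaving out WT NASH replicate 2, 4 or 5, or KO NASH replicate 1, 3 or 5, ended the call, with log2 fold changes of 0.56 to 0.66 and edgeR adjusted p of 0.0514 to 0.0879. With sex as a term the value was 0.65 and with sex and slope 0.53, neither called (edgeR adjusted p = 0.1 and 0.0591). The males were at 33.5 CPM in WT NASH and 47.4 to 61.1 CPM in KO NASH, and the females at 24.0 to 43.2 CPM and 45.7 CPM. KO NASH replicates 1 and 5 were the most alike pair of libraries in any group, yet differed beyond counting error (chi-square per degree of freedom 7.82). Summed as 1 sample, they left Lyve1 called (1.51, edgeR adjusted p = 0.0247) and Kdr not called (0.63, edgeR adjusted p = 0.0747).

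Plvap, the diaphragm protein, was the member that rose with the NASH diet in WT liver. It was at 20.8, 11.5, 8.46, 5.89 and 7.76 CPM in the WT chow libraries, and at 38, 37, 26.8, 19 and 29.6 CPM in those of WT NASH. WT NASH replicate 4, the male of its group, lay below WT chow replicate 1, and the other 4 WT NASH libraries lay above all of WT chow. The means were 10.9 ± 5.92 and 30.1 ± 7.82 CPM (SD, n = 5), and the log2 fold change was 1.46 with an SE of 0.33 (edgeR adjusted p = 0.0126). KO chow was at 17.2, 25.5, 37.9, 10.2 and 17.5 CPM and KO NASH at 40.4, 41.5, 43.9, 34.5 and 45.6 CPM, so that KO NASH was the highest group with the least spread, 41.2 ± 4.24 CPM (SD, n = 5). Plvap was 0.99 higher on the log2 scale in KO chow than in WT chow (SE 0.327, edgeR adjusted p = 0.0841) and 0.93 higher in KO NASH than in KO chow (SE 0.324, edgeR adjusted p = 0.108), neither passing the test. KO NASH and WT NASH differed by 0.45 (SE 0.322, edgeR adjusted p = 0.403).

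Which Plvap differences were called depended on whether sex and length slope were fitted. The call in WT NASH held without any 1 library (edgeR adjusted p up to 0.0392) and with the slope as a term (1.23, edgeR adjusted p = 0.00248). Summed over 5 red blood cell markers, WT NASH was at 25 to 179 CPM and WT chow at 81.4 to 245 CPM, and the part of blood content in the Plvap difference was not tested. The call was lost once sex was fitted (1.02, edgeR adjusted p = 0.257), where no member was called and 1.11% of all genes were, and with both terms (0.86, edgeR adjusted p = 0.0515). The single WT NASH male, at 19 CPM, has a slope below 0, as have the WT chow males at 5.89 to 8.46 CPM. The WT chow males with a slope above 0 were at 11.5 and 20.8 CPM and the WT NASH females at 26.8 to 38 CPM. With the slope as a term Plvap was called in KO chow against WT chow (0.80, edgeR adjusted p = 0.0284), and with both terms in KO NASH against KO chow (0.79, edgeR adjusted p = 0.0247). Without WT chow replicate 1 or KO chow replicate 4, Plvap was called in KO chow against WT chow (1.38 and 1.17, edgeR adjusted p = 0.0155 and 0.0324), and without KO chow replicate 3 in KO NASH against KO chow (1.22, edgeR adjusted p = 0.0339).

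Cd34, the sialomucin of continuous capillaries, was the least abundant member by count, and its highest values were in KO NASH. WT chow libraries held 1.60, 1.84, 3.88, 5.13 and 1.87 CPM and WT NASH libraries 1.74, 2.02, 2.42, 5.88 and 3.10 CPM. KO chow libraries held 1.95, 2.33, 2.18, 2.54 and 4.31 CPM and KO NASH libraries 8.02, 4.06, 4.22, 4.12 and 7.84 CPM. Replicates 1 and 5 of KO NASH were the highest of all libraries, while WT NASH replicate 4 lay above the other 3 KO NASH libraries. The log2 fold change was 0.94 in KO NASH against WT NASH (SE 0.382, edgeR adjusted p = 0.124) and 1.09 in KO NASH against KO chow (SE 0.378, edgeR adjusted p = 0.106). With the length slope as a term both passed (1.29 and 1.47, edgeR adjusted p = 0.0121 and 0.0122). Without WT NASH replicate 4 the first did too (1.29, edgeR adjusted p = 0.0452). In males alone, where WT NASH is that 1 library, it was 0.04 (edgeR adjusted p = 0.968).

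The scavenger receptors Stab1 and Stab2 were highest in KO NASH but did not pass the test in any comparison. For Stab1 the WT chow values were 37.7, 53.1, 28.5, 29.1 and 24.7 CPM and the WT NASH values 45.5, 30.8, 41.9, 29.4 and 33.1 CPM. The KO chow values were 46.4, 47.8, 56.8, 23.6 and 25.0 CPM and the KO NASH values 75.1, 43.8, 51.5, 51.7 and 81.1 CPM. Its log2 fold change in KO NASH against WT NASH was 0.75 (SE 0.267, edgeR adjusted p = 0.081). Stab2 ranged from 28.2 to 52.6 CPM (WT chow), 32.2 to 56.3 CPM (WT NASH), 37.9 to 61.4 CPM (KO chow) and 39.2 to 75.5 CPM (KO NASH), and the same comparison gave 0.42 (SE 0.225, edgeR adjusted p = 0.245). Both paralogs thus overlapped between groups. Stab1 is also made by macrophages. The summed level of 8 Kupffer cell markers was 312 to 421 CPM in KO NASH and 439 to 836 CPM in WT NASH. Of those markers 1, Timd4, was called in this comparison, and it was lower in KO. The part of macrophages in the Stab1 values was not tested.

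With the length slope as a term, 4 members were called in KO NASH against WT NASH (Stab1, Lyve1, Kdr and Cd34, all higher), beside 16.5% of all genes. Stab1 was then at 0.50 (edgeR adjusted p = 0.0322). The 14 libraries with a slope above 0, fitted alone, gave the same 4 members, beside 21.3% of all genes, but there the 4 WT NASH libraries are all female and 4 of the 5 KO NASH libraries male. With sex as a term the count went from 2 members to none, while that of all genes went from 9.65% to 4.33%.

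Fcgr2b, the inhibitory IgG receptor, had the smallest SD over the 20 libraries relative to its mean among the sinusoidal markers. In WT chow, WT NASH, KO chow and KO NASH its means were 44.6 ± 4.18, 39.3 ± 4.53, 49.4 ± 14.7 and 48.5 ± 8.05 CPM (SD, n = 5 each). Its log2 fold changes lay between -0.18 and 0.31 in the 4 comparisons of 2 groups, with SE of 0.186 or 0.187. The endothelial junction marker Pecam1 was at 24.8 ± 7.58, 22.5 ± 5.72, 28.3 ± 7.81 and 34 ± 5.28 CPM in the same order. Its difference in KO NASH against WT NASH was 0.60 (SE 0.23, edgeR adjusted p = 0.105), and it was called without WT NASH replicate 3 (0.76, edgeR adjusted p = 0.0479). Vwf, the clotting glycoprotein, was at 6.63 ± 3.69, 8.70 ± 2.51, 7.35 ± 4.25 and 10.2 ± 1.06 CPM, with log2 fold changes of 0.15 to 0.47 and SE of 0.385 to 0.39. Platelets also carry Vwf and Pecam1. Of 5 platelet markers, Pf4, Ppbp, Gp9 and Gp1bb had at most 10 counts in any library, and Itga2b averaged 1.31 to 2.59 CPM per group. Their sum, mostly Itga2b, was 2.2 to 3.33 CPM in KO NASH and 0.883 to 1.78 CPM in WT NASH, and Vwf and Pecam1 also had the higher mean in KO NASH. The order over all 4 groups differed. Itga2b averaged 2.55, 1.31, 2.47 and 2.59 CPM in WT chow, WT NASH, KO chow and KO NASH, so it was lowest in WT NASH, while Vwf was lowest in WT chow. The part of platelets in the Vwf and Pecam1 values was not tested.

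Clec4g, the sinusoidal lectin, was spread widely within 3 of the 4 groups. WT chow libraries held 36.7, 43.2, 129, 162 and 110 CPM and WT NASH libraries 44.5, 50.3, 49.3, 120 and 54.2 CPM. KO chow libraries held 46.6, 36.8, 65.6, 90.3 and 122 CPM and KO NASH libraries 62.8, 47.7, 53.9, 45.0 and 59.8 CPM. The 6 libraries with a length slope below 0 were at 90.3 to 162 CPM and the other 14 at 36.7 to 65.6 CPM, with no overlap. How many of all genes separate these libraries in the same way was not counted. No comparison of groups passed the test (log2 fold changes of -0.60 to -0.24, edgeR adjusted p of 0.375 to 0.751). With the slope as a term, the differences of KO chow from WT chow, of KO NASH from WT NASH and of KO NASH from KO chow were above 0 (0.01, 0.28 and 0.22), so the sign of these Clec4g differences depends on that term.

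The same 6 libraries were low for some members with long exonic sequence. Stab1 was at 23.6 to 29.4 CPM in them and at 30.8 to 81.1 CPM in the others. Vwf was at 2.49 to 6.87 CPM in the 6 and 6.88 to 12.6 CPM in the 14, so the ranges nearly met but did not overlap. Lyve1, at 10.3 to 38.5 CPM and 7.95 to 55.2 CPM, did not separate them, nor did the 6 remaining members. Without the share over all genes, these separations do not set Clec4g, Stab1 or Vwf apart from other genes. Deviations from the group means correlated with the slope at r = -0.90 for Clec4g (2.46 kb exonic), -0.57 for Cd34 (7.29 kb), -0.40 for Fcgr2b (5.79 kb), 0.05 for Lyve1 (2.92 kb), 0.44 for Pecam1 (6.23 kb), 0.60 for Kdr (9.03 kb), 0.73 for Plvap (1.99 kb), 0.79 for Stab2 (8.76 kb), 0.86 for Stab1 (10.3 kb) and 0.87 for Vwf (16.1 kb). These values describe 20 libraries that share their scaling. Plvap, the shortest member, and Cd34 did not follow the order of exonic length, which need not be that of their transcripts.

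**Figure D3:**
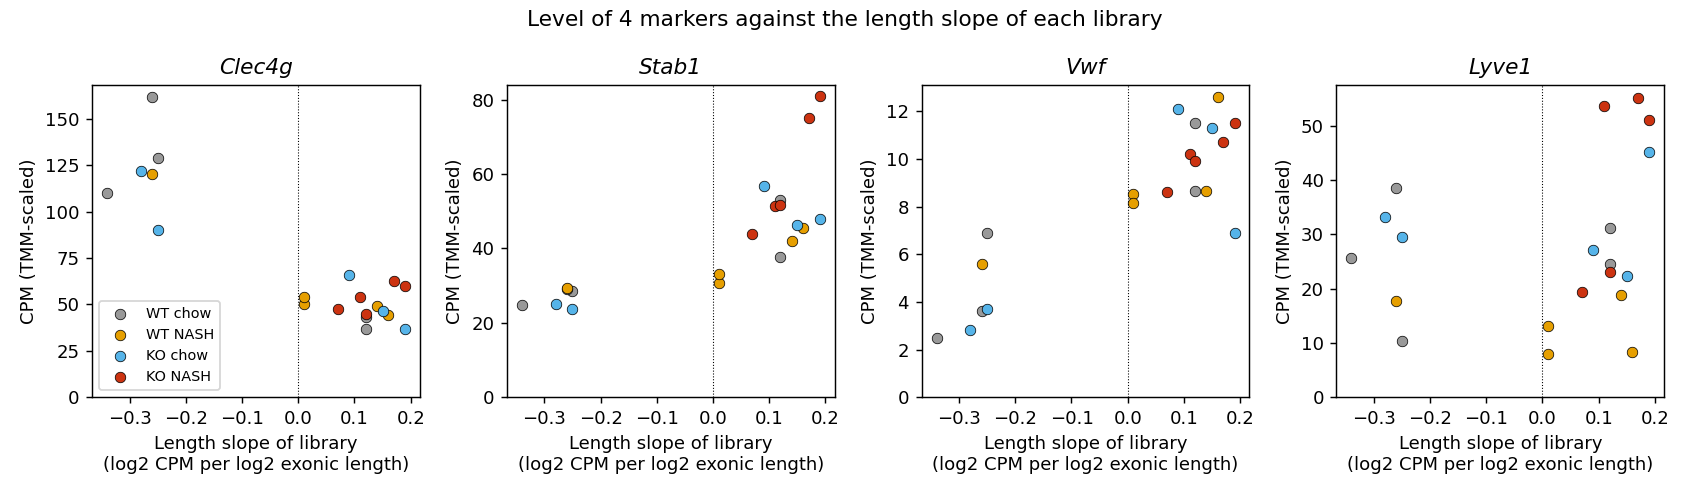
CPM of Clec4g, Stab1, Vwf and Lyve1 (y axis, from 0) against the length slope of each library (x axis), 1 point per library, coloured by group. Libraries with a slope below 0 are high for Clec4g (90.3 to 162 CPM) and low for Stab1 (23.6 to 29.4 CPM), while Lyve1 overlaps between both sides (10.3 to 38.5 and 7.95 to 55.2 CPM).

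Within groups some members varied together. Over the 20 libraries the deviations of Stab1 and Stab2 from their group means correlated at r = 0.90, and over the 14 libraries with a slope above 0 at r = 0.96. In those 14, Stab1 with Kdr (0.78), Stab2 with Kdr (0.83), Stab1 with Pecam1 (0.77) and Clec4g with Fcgr2b (0.88) were also high, while Plvap with Stab1 (0.02), Stab2 (0.05) and Pecam1 (-0.27) was not. Clec4g and Stab1 were at -0.59 over 20 libraries and at 0.48 over the 14. The 5 genes most like Stab2 over the 20 libraries, among 8979 others with a mean of at least 5 CPM, were Stab1, Itga1, Thrap3, Neat1 and Gpr107 (r = 0.90 each), and those most like Plvap were Sod3 (0.96), Ntn1, Ecm1, Dock9 (0.90 each) and Cpne2 (0.88). The deviations of these genes correlated with the length slope too, at 0.71 to 0.91. All these values are descriptions over libraries that share depth and scaling.

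Other endothelial genes were examined in 4 lists of 91 genes in all, 84 of which passed the low-count filter. Of 23 further sinusoidal genes tested, 2 were called in KO NASH against WT NASH, both higher, beside 9.65% of all genes, with a median log2 fold change of 0.16 (all genes 0). That share is near the background. They were Flt4, a receptor for VEGF-C, with 15.3 ± 5.62 CPM for WT and 38.3 ± 8.23 CPM for KO (1.32, SE 0.315, edgeR adjusted p = 0.0133), and Bmp6, a ligand of iron regulation made by sinusoidal cells, at 2.82 and 7.44 CPM (1.41, SE 0.328, edgeR adjusted p = 0.0119). Flt4 stayed called when sex, slope or their combination was fitted and without any 1 library. Bmp6 lost its call with sex (1.32, edgeR adjusted p = 0.0611) and was called with sex and slope together (1.26, edgeR adjusted p = 0.0487). Among males, where WT NASH is 1 library with a slope below 0, Flt4 was at 2.18 and Bmp6 at 1.34. With the slope as a term Flt4 was at 1.06. Between KO NASH and KO chow, Flt4 (1.16, edgeR adjusted p = 0.0458) and the thrombin receptor Thbd (0.93, edgeR adjusted p = 0.0404) were called, beside 3.29% of all genes. None of the list was called in WT NASH against WT chow or KO chow against WT chow, where 1 and 0 genes had an unadjusted edgeR p under 0.05 (22.1% and 19.4% of all genes) and DESeq2 called 0 and 0 (10.4% and 9.62%).

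Of 24 general endothelial genes tested, 4 were called in KO NASH against WT NASH (9.65% of all genes), with a median of 0.36. The angiopoietin co-receptor Tie1 (0.90, edgeR adjusted p = 0.0184), the nitric oxide synthase Nos3 (1.21, edgeR adjusted p = 0.0242) and the matrix protein Mmrn2 (0.73, edgeR adjusted p = 0.0371) were higher in KO, and S1pr1, a receptor for sphingosine-1-phosphate, was lower (-1.04, edgeR adjusted p = 0.0242). All 4 lost the call when sex was fitted: Tie1 (0.90, edgeR adjusted p = 0.0716), Nos3 (edgeR adjusted p = 0.0971), Mmrn2 (0.71, edgeR adjusted p = 0.116) and S1pr1 (-0.68, edgeR adjusted p = 0.133). With both terms together Tie1 was called (0.72, edgeR adjusted p = 0.0217). The others were not: S1pr1 was at -0.50 (edgeR adjusted p = 0.14), Nos3 at 0.90 (edgeR adjusted p = 0.0711) and Mmrn2 at 0.57 (edgeR adjusted p = 0.0897). S1pr1 was also the only one of the list called in KO chow against WT chow, beside 5.53% of all genes. It was lower there too, at 13.1 ± 5.08 CPM against 35.5 ± 9.25 CPM in WT chow (-1.44, SE 0.282, edgeR adjusted p = 0.00567). That value stayed called when sex, slope or their combination was fitted and among males, and was not called in the 14 libraries with a slope above 0 (-1.19, edgeR adjusted p = 0.0868). S1pr1 went the other way from Kdr, Lyve1 and Flt4. Between the 2 KO groups, where 3.29% of all genes were called, Nos3 (1.45) and S1pr1 (1.06) were higher in KO NASH (edgeR adjusted p = 0.0219 and 0.0436). None of the list was called in WT NASH against WT chow, where the median was -0.21. There 4 genes had an unadjusted edgeR p under 0.05 and DESeq2 called 2, beside the 22.1% and 10.4% of all genes given above.

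Of 20 genes of capillaries, arteries and the basement membrane tested, 7 were called in KO NASH against WT NASH (9.65% of all genes), all higher, with a median of 0.84. Basement membrane genes were Col4a1, Col4a2, Lama4 (0.85, edgeR adjusted p = 0.0448) and Nid1 (1.05, edgeR adjusted p = 0.012). The netrin receptor Unc5b, a gene of arteries and sprouting tips, was at 13.8 CPM in KO NASH and 3.17 CPM in WT NASH (2.11, SE 0.403, edgeR adjusted p = 0.00302), and the Notch target Hey1 and the adhesion molecule Sele were also called, each on averages of at most 1.45 CPM. When sex was fitted, Col4a1 and Unc5b stayed called and the other 5 did not (edgeR adjusted p of 0.0578 to 0.222). With sex and slope together Col4a2 (1.09, edgeR adjusted p = 0.00828) and Nid1 (0.86, edgeR adjusted p = 0.0332) were called too. Lama4, Sele and Hey1 were not. Nid2 was called in WT NASH against WT chow, beside 5.93% of all genes, at 6.05 against 1.48 CPM (2.03, SE 0.322, edgeR adjusted p = 0.000978). Fitting sex ended that call (1.45, edgeR adjusted p = 0.0654), while Nid2 was called with sex and slope together (1.23, edgeR adjusted p = 0.0262). Among males, where WT NASH is 1 library, Nid2 was at 0.74. In KO chow against WT chow, where 5.53% of all genes were called, Col4a1 and Col4a2 were higher and the arterial connexin Gja5 lower (-1.78, edgeR adjusted p = 0.046). Gja5 was not called with sex (-1.57, edgeR adjusted p = 0.123) or slope (-1.34, edgeR adjusted p = 0.095) as a term. None of these 3 was called in the 14 libraries with a slope above 0, where Col4a1 was at 1.46 (edgeR adjusted p = 0.0526), Col4a2 at 1.15 (edgeR adjusted p = 0.0877) and Gja5 at -0.24 (edgeR adjusted p = 0.858). In KO NASH against KO chow 2 genes of the list were called, both higher, beside 3.29% of all genes, with a median of 0.74 (all genes -0.02). They were Nid1 (1.05, edgeR adjusted p = 0.0269) and Unc5b (1.46, edgeR adjusted p = 0.0441), kept in 15 and 7 of the 20 fits that left out 1 library. Stellate cells and other cells also express the basement membrane genes. The summed level of 8 stellate markers was 395 to 589 CPM in KO NASH and 283 to 776 CPM in WT NASH, and none of them was called; the part of these cells in the result was not tested.

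Of 17 VEGF, angiopoietin and Notch genes tested, 3 were called in KO NASH against WT NASH (9.65% of all genes), all higher: the VEGF receptor Flt1 (1.13, edgeR adjusted p = 0.0247), the endothelial Notch ligand Dll4 (1.03, edgeR adjusted p = 0.0131) and the Notch target Heyl (1.43, edgeR adjusted p = 0.045). None of the 3 was called when sex was fitted (edgeR adjusted p of 0.0715 to 0.248), and Heyl was not called with the slope (1.2, edgeR adjusted p = 0.0605). With sex and slope together Flt1 (0.90, edgeR adjusted p = 0.0181) and Dll4 (0.94, edgeR adjusted p = 0.0447) were called. Heyl was not (0.74, edgeR adjusted p = 0.314). On the NASH diet in WT liver Notch1 (1.33), Notch2 (0.97) and the ligand Dll1 (1.31) were higher (edgeR adjusted p = 0.0281, 0.0323 and 0.0208), beside 5.93% of all genes called. All 3 lost the call once sex was fitted, and Notch1 and Dll1 were at -0.02 and -0.21 in males alone, where WT NASH is 1 library. With sex and slope together Notch2 was called (0.70, edgeR adjusted p = 0.0461). Notch1 (0.70, edgeR adjusted p = 0.0737) and Dll1 (0.49, edgeR adjusted p = 0.438) were not. Heyl (1.62) and Hes1 (0.86) were higher in KO NASH than in KO chow (edgeR adjusted p = 0.0441 and 0.0421), beside 3.29% of all genes called.

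**Figure D4:**
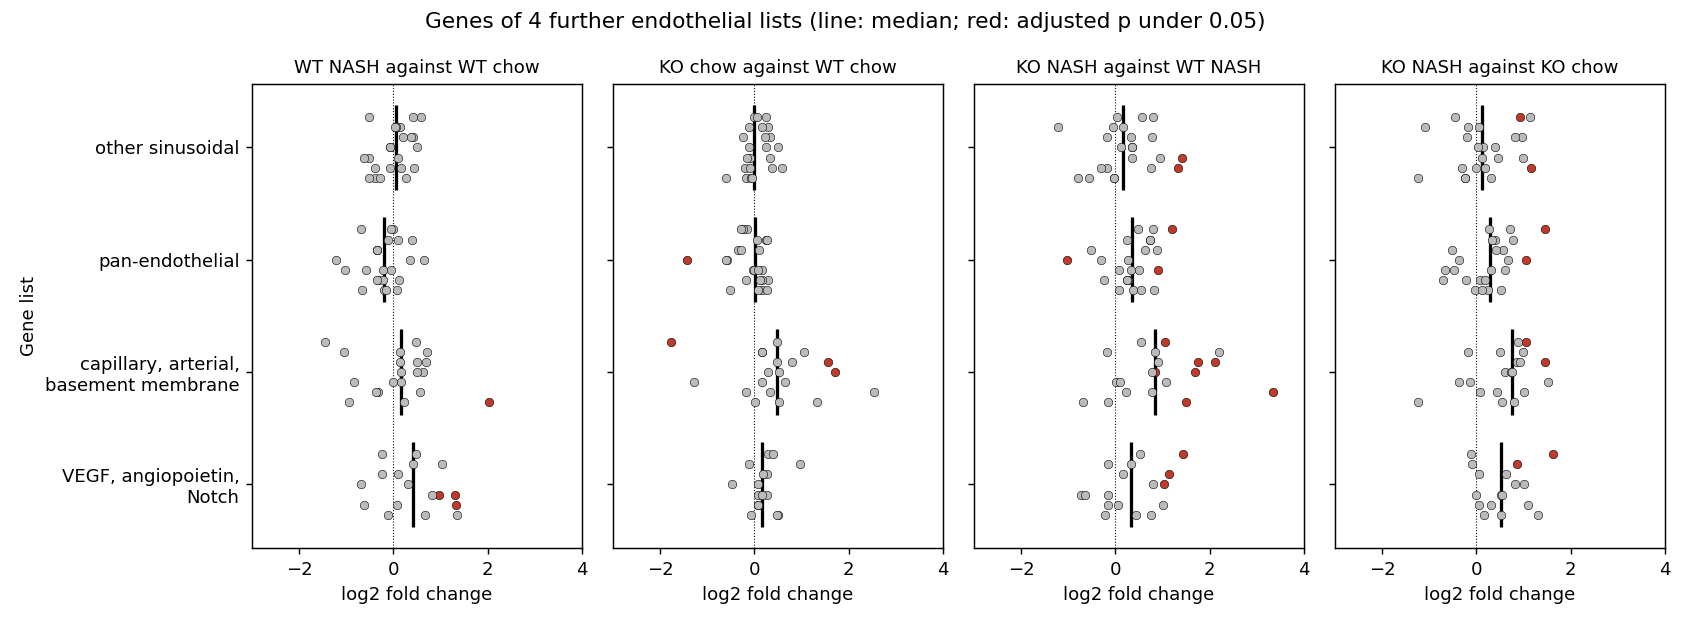
log2 fold change (x axis) of every tested gene of the 4 further lists (rows) in the 4 comparisons of 2 groups, 1 point per gene, with the list's median as a line; red points passed an edgeR adjusted p of 0.05. The widest shift is that of the capillary, arterial and basement membrane list in KO NASH against WT NASH, with a median of 0.84 and 7 red points, all above 0.

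The 4 lists held 2, 4, 7 and 3 called genes in KO NASH against WT NASH, in the order given. They held 5, 6, 11 and 3 with the length slope as a term, 1, 0, 2 and 0 with sex as a term, and 3, 3, 5 and 3 with both. In the 14 libraries with a slope above 0 they held 5, 9, 14 and 5, and with KO NASH replicates 1 and 5 summed 2, 1, 4 and 1. The share of all genes called moved as well, from 9.65% to 16.5% with the slope, 4.33% with sex, 10.5% with both and 21.3% in the 14 libraries. It was 5.24% with those replicates summed. Leaving out each of the 20 libraries in turn kept the call every time for Flt4, Bmp6, Nid1, Unc5b, Col4a1, Col4a2 and Dll4 in KO NASH against WT NASH, for S1pr1 and Col4a1 in KO chow against WT chow and for Nid2 in WT NASH against WT chow. The other called list genes kept it in 6 (Gja5) to 19 (Tie1) of 20.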

How the data were processed

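RNA of whole mouse liver was sequenced in 20 libraries. The deposited table holds raw counts per gene symbol. HISAT2 2.0.4 and GRCm38 are named, per the submitters' processing notes, while no source used here gives the counting program, annotation or strand setting, so reads of overlapping or antisense genes cannot be told apart. Its columns marked HFD were matched to the NASH diet, since the others name the chow diet.

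Tests were run with edgeR 4.0.16 under R 4.3.3: filterByExpr (minimum count 10, which kept 14440 genes and 99.9% of counts), TMM scaling, 1 coefficient per group over all libraries, and the quasi-likelihood F test with Benjamini-Hochberg adjustment over all genes tested, called at 0.05. SE came from the unshrunk log2 fold change and F. Exonic lengths are unions of GENCODE M21 exons. A library was read as male where 4 Y-linked genes summed to 100 or more counts. The length slope rests on 9518 genes whose mean log2 CPM reached 2. Alternatives were RLE scaling, DESeq2 1.42.0, TMM leaving the 20 most abundant genes aside, no filter on low counts, terms or subsets for sex and slope, a replicate block, summing 2 libraries, and leaving out each library. The fit of the 14 libraries with a slope above 0 was added after seeing the data. The procedure was tested on simulated data. Members, lists and alternatives were chosen with earlier results of these data known. Named genes are all members, any called gene of the lists, and the 5 genes most like Stab2 and Plvap by r. Statements on counts cover counting error only.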

Additional observations from a re-analysis of the deposited data

Results flagged for a closer look

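Of 40 sets of 5 values (10 genes in 4 groups), 3 had a library far from the others by Dixon's test, which chance alone flags in about 1 of 20 sets. Clec4g was at 120 CPM in WT NASH replicate 4 and at 44.5 to 54.2 CPM in the others. That library has a length slope below 0, unlike the rest of its group, and is its only male. Pecam1 was at 37.9 CPM in WT chow replicate 2 and at 18.7 to 24.0 CPM in the others. Cd34 was at 4.31 CPM in KO chow replicate 5 and at 1.95 to 2.54 CPM in the others.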

How the results depend on the processing

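The number of members called in WT NASH against WT chow (1) was 2 with DESeq2, the replicate block or the length slope as a term, and 0 with sex as a term or in males alone. In KO chow against WT chow (0) it was 1 with DESeq2, the replicate block or the slope, and 0 to 1 when each library was left out. In KO NASH against WT NASH (2) it was 0 with sex as a term and in males alone, 1 without the low-count filter, with sex and slope, or when KO NASH replicates 1 and 5 were summed, 3 with DESeq2, which added Stab1 (0.74, DESeq2 adjusted p = 0.044), 4 with the slope or in the 14 libraries with a slope above 0, and 1 to 3 with each library left out. In KO NASH against KO chow (0) it was 1 with the replicate block, the slope or the 14 libraries, 2 with sex and slope, and 0 to 1 with each library left out. The interaction stayed at 0 members under every alternative run. Same-numbered libraries of different groups did not vary together (r of -0.41 to 0.52 over 30 pairs, with 8 of 30 correlating best with their own number), so the replicate block has no support as a pairing.

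Sign changes were as follows, in differences not called except for Dll1 and Notch1. In WT NASH against WT chow, males alone gave -0.24 for Stab1, -0.25 for Stab2, 0.32 for Clec4g, 0.03 for Fcgr2b, -0.25 for Vwf, -0.21 for Dll1 and -0.02 for Notch1; the slope gave -0.19 for Stab1 and -0.03 for Stab2; both terms -0.13 for Stab1; sex 0.02 for Pecam1; and the 14 libraries -0.24 for Stab1, -0.03 for Stab2, 0.34 for Clec4g and -0.07 for Vwf. In KO chow against WT chow the slope gave -0.03 for Stab1, 0.01 for Clec4g, -0.19 for Vwf and 0.15 for Cd34; both terms 0.02 for Clec4g, -0.20 for Vwf and 0.30 for Cd34; sex 0.09 for Cd34; and the 14 libraries 0.32 for Clec4g, -0.01 for Pecam1 and 0.33 for Cd34. In KO NASH against WT NASH Clec4g was at 0.28, 0.26 and 0.10 and Vwf at -0.12 and -0.11 with the slope, both terms and (Clec4g) the 14 libraries. In KO NASH against KO chow Clec4g was at 0.22, 0.22 and 0.12 and Fcgr2b at 0.08, 0.08 and 0.09 in that order, Stab2 at -0.03 and -0.05 with the slope and both terms, and Fcgr2b at 0.15 in males and 0.01 with the replicate block. The interaction of Stab2 was -0.01 with sex, -0.01 with the slope, -0.06 with both and -0.08 when KO NASH replicates 1 and 5 were summed, that of Clec4g -0.01 with sex, -0.38 in males and -0.21 in the 14 libraries, and that of Plvap 0.06 with sex and 0.42 in males. Leaving out each library gave ranges that crossed 0 for Stab1 (-0.03 to 0.27), Pecam1 (-0.31 to 0.06) and Cd34 (-0.30 to 0.38) in WT NASH against WT chow, Vwf (-0.10 to 0.45) and Cd34 (-0.30 to 0.24) in KO chow against WT chow, Clec4g in KO NASH against WT NASH (-0.34 to 0.12), Fcgr2b in KO NASH against KO chow (-0.16 to 0.09), and the interactions of Stab2 (-0.13 to 0.14), Clec4g (-0.10 to 0.53) and Vwf (-0.23 to 0.32). The cause was not tested. No called member changed sign. Depth limits Cd34 and Vwf, with as few as 27 and 36 counts in a library.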
